A study of Mus musculus with 8 samples.

Results

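The TNF model and the dexamethasone (Dex) model of insulin resistance in 3T3-L1 adipocytes were compared directly, gene by gene, with 3 arrays of each, which are 6 of the 8 arrays of the series. 3T3-L1 is an established mouse fibroblast line, 1 line throughout, that is differentiated in culture into fat cells. To model insulin resistance, the adipocytes of the TNF group received tumour necrosis factor, an inflammatory cytokine. Those of the Dex group received dexamethasone, a synthetic glucocorticoid. Every one of the 8 samples, including 2 of a chronic insulin (CI) model, also received MnTBAP (MnTBP in the sample titles), a cell-permeable manganese porphyrin antioxidant, for the final 6 hours. The paper reports that MnTBAP restored the insulin response of each model in earlier work. Whether the cells measured here were insulin resistant at harvest was not tested. Cells without MnTBAP and untreated cells were not analysed here, so a gene described as higher in TNF is by the same measurement lower in Dex, and whether it was TNF or Dex that moved away from an untreated level was not tested. The members were chosen by sample title alone. The labels do not say if the 3 samples of a model were grown as separate cultures. Each p-value refers to the spread within the groups of this series, CI included, moderated by the spread of all other genes. That spread could be technical only.

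Tumour necrosis factor binds a cell surface receptor and, through kinases that destroy the IkB inhibitors, releases NF-kB dimers into the nucleus, where they switch on chemokine, acute phase and adhesion genes as well as their own inhibitors. Dexamethasone binds the glucocorticoid receptor, a nuclear receptor that activates genes through glucocorticoid response elements and can also restrain NF-kB at inflammatory genes. In fat cells both agents impair insulin-stimulated glucose uptake, and both are known to act on lipid storage and release.

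RNA was hybridised to Affymetrix whole-genome mouse arrays. Levels below are log2 of the deposited probe set intensity, differences are TNF minus Dex in log2 units, each with its standard error (SE) from the model, and a difference of 1 means that intensity was 2 times as high. Arrays of these models were alike in overall scale, with median intensities of 126.5 to 131.0, and over all probe sets Pearson's r between arrays was 0.9958 to 0.9978 within the TNF group, 0.9962 to 0.9974 within the Dex group and 0.9869 to 0.9902 between them. TNF replicate 1 stood somewhat apart: of the 753 genes called higher in TNF it was the highest TNF array for 381, against 122 and 250 for replicates 2 and 3. Array weights estimated by limma, lower for noisier arrays, were lowest for Dex replicate 3 (0.58) and TNF replicate 1 (0.62). The 3′ minus 5′ difference of the beta-actin control probe sets, a sign of RNA degradation, ranged from 0.71 to 0.83 for TNF and from 0.49 to 0.75 for Dex. Precision is limited throughout by how few arrays there were.

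A gene was called when its adjusted p, from limma's moderated test with Benjamini-Hochberg adjustment over all genes, was under 0.05 and its absolute difference was over 0.5. Of 18194 genes tested 1328 were called, which is 7.3% of all genes, 753 of them higher in TNF (4.14%) and 575 lower (3.16%). At a difference over 1 there were 228 genes higher (1.25%) and 114 lower (0.627%), and at a difference over 4 there were 5 in each direction. With the beta-actin difference as a covariate 1279 genes were called, 661 higher and 618 lower. The median difference of all genes was 0.01. The TNF and Dex arrays did not overlap for 1309 of the called genes and overlapped for 19, while over all genes 6535 (35.9%) did not overlap. In a bulk sample fewer cells of a kind and less RNA per cell cannot be told apart. No detection calls were used. As a rough guide to levels near the array's lower end, 71 odorant and vomeronasal receptor genes, which fat cells are not known to use, had a median level of 5.92 and a 95th percentile of 7.60. The Dex mean was under that percentile for 213 of the 753 genes called higher in TNF, and the TNF mean for 89 of the 575 called lower. Both means were under it for 103 of the genes called higher and 38 of those called lower. For these genes the size of a difference, and its rank, depend on the lower end of the scale.

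**Figure D1:**
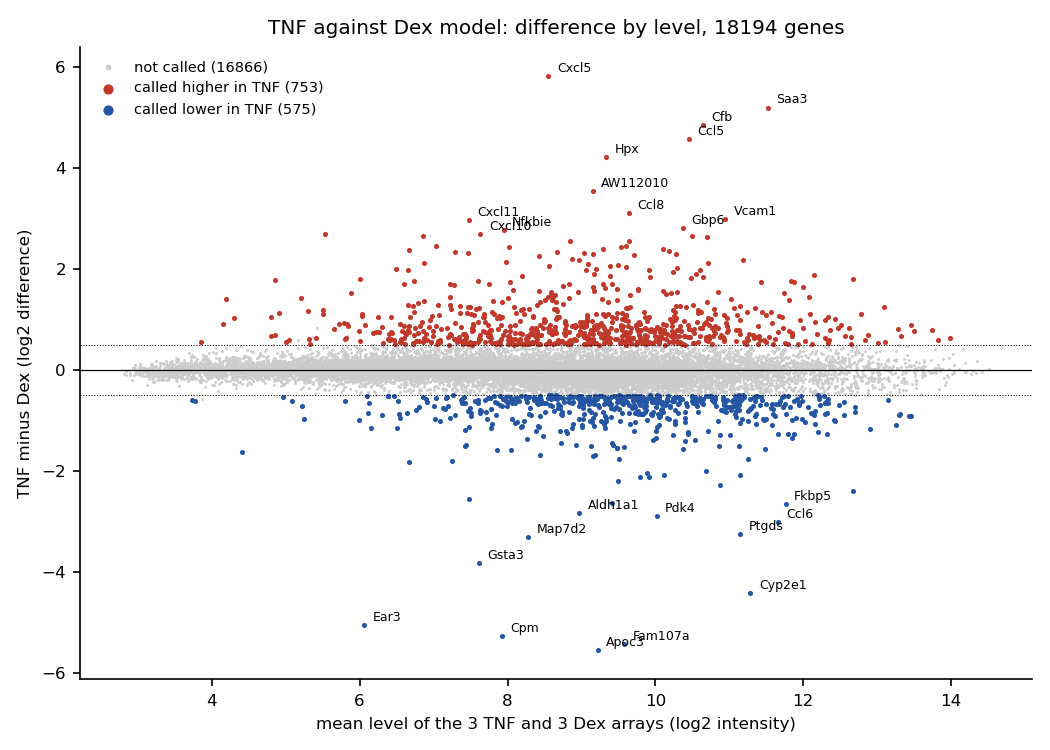
TNF minus Dex difference (y axis, log2) of each of 18194 genes against its mean level over the 6 arrays (x axis, log2 intensity). Red points are the 753 genes called higher in TNF, blue points the 575 called lower, grey points were not called, dotted lines mark 0.5 and the 24 genes of the largest differences are named. The largest measured differences in both directions, 5.82 for Cxcl5 and -5.55 for Apoc3, lie far outside the grey band.

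The largest measured difference was in Cxcl5, a neutrophil-attracting chemokine secreted by fat tissue. Its level was 11.97, 11.14 and 11.28 in the TNF arrays and 5.72, 5.66 and 5.55 in the Dex arrays, so that the Dex arrays lay below the median of the odorant receptor genes. The measured difference was 5.82 ± 0.17 (SE, n = 3 and 3, limma adjusted p = 1.35e-09), and its size is set in part by that lower end of the scale. Ccl5, which recruits T cells and monocytes, measured 12.71, 12.73 and 12.80 in TNF against 8.07, 8.27 and 8.20 in Dex. Arrays of each group agreed closely, and the difference was 4.57 ± 0.07 (limma adjusted p = 8.66e-12). Of 23 chemokine genes measured 12 were called higher in TNF and 0 lower, with a median difference of 0.52 beside 0.01 for all genes. The median depended on the probe set taken for each gene, at 1.42 with the median of a gene's probe sets (13 higher, 1 lower), 1.51 with the probe set of highest variance (14 higher, 1 lower) and 1.13 with only probe sets of the plain design type, those whose names carry no suffix for possible matches to other transcripts. The monocyte attractants Ccl8 (3.11 ± 0.09), Ccl2 (2.64 ± 0.20) and Ccl7 (1.56 ± 0.16) and the interferon-inducible T cell attractants Cxcl11 (2.96 ± 0.12), Cxcl10 (2.69 ± 0.32) and Cxcl9 (2.43 ± 0.08) were among them. Against that run stood Ccl6, which was not on the list and was lower in TNF, with 10.03, 10.27 and 10.17 against 13.22, 13.12 and 13.13 in Dex. The CI mean lay above both models for 1 of the 12 chemokines called higher, below both for 1, nearer TNF for 2 and nearer Dex for 8. Cxcl10 measured 10.53 and 10.59 in CI, above its 9.94, 8.35 and 8.65 in TNF.

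**Figure D2:**
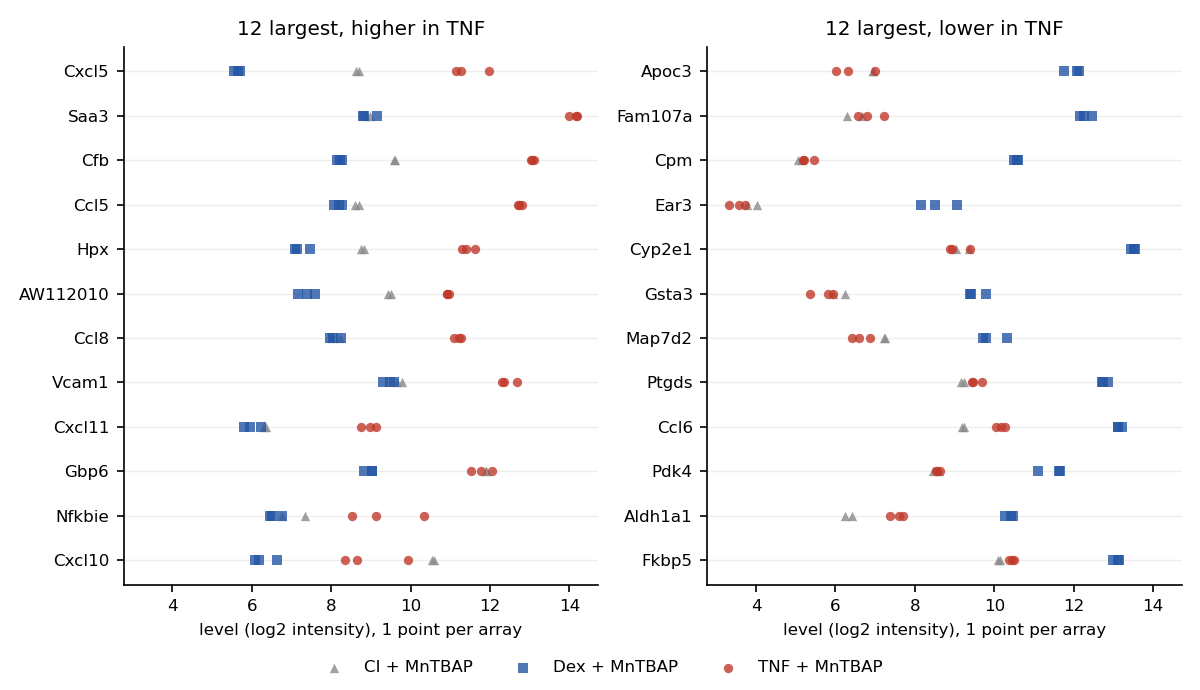
Level in every array (x axis, log2 intensity, 1 point per array) of the 12 genes with the largest difference in each direction, with TNF arrays as red circles, Dex arrays as blue squares and CI arrays as grey triangles. The red and blue points do not overlap for any of the 24 genes, and the TNF arrays of Nfkbie and Cxcl10 are the most spread.

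Acute phase genes followed the chemokines. Saa3, the serum amyloid A that mouse adipocytes make in inflammation, measured 14.18, 14.18 and 13.98 in TNF and 8.82, 8.81 and 9.14 in Dex, a difference of 5.19 ± 0.10 (limma adjusted p = 5.2e-11). Cfb, complement factor B of the alternative pathway, measured 13.12, 13.02 and 13.05 in TNF and 8.28, 8.14 and 8.22 in Dex, a difference of 4.85 ± 0.07. In both genes the arrays of a group lay close together and the groups were far apart. The haem-binding plasma protein hemopexin (Hpx) was higher by 4.21 ± 0.11, with 11.62, 11.30 and 11.39 against 7.08, 7.14 and 7.47. Of 28 acute phase and complement genes 9 were called higher and 1 lower, with a median difference of 0.16. Among the 9 were the pattern recognition protein Ptx3 (2.39 ± 0.24), the classical complement proteases C1s1 (2.18 ± 0.10) and C1ra (1.87 ± 0.09), and the iron-siderophore binder Lcn2 (1.85 ± 0.24). The gene called lower was the serine protease inhibitor Serpina3n (-0.57 ± 0.08), with 9.14, 8.99 and 8.97 in TNF against 9.60, 9.53 and 9.67 in Dex.

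The NF-kB subunits and feedback inhibitors differed less as a list, with 3 of 24 called higher (12.5%, beside 4.14% of all genes), 0 lower and a median of 0.19. Nfkbie, which encodes the inhibitor IkB-epsilon, measured 10.35, 8.52 and 9.13 in TNF against 6.75, 6.46 and 6.499 in Dex. The TNF arrays were widely spread but did not reach the Dex arrays, and the difference was 2.76 ± 0.35 (limma adjusted p = 0.000177). The IkB kinase relative Ikbke (1.30 ± 0.11) and the non-canonical subunit Relb (1.10 ± 0.16) were the others called. Nfkbia, which encodes IkB-alpha and is a known target of NF-kB and of the glucocorticoid receptor alike, measured 13.03, 12.42 and 12.58 in TNF and 13.12, 13.05 and 13.03 in Dex, and its difference of -0.39 ± 0.13 was not called on its brightest probe set (adjusted p = 0.0564), although all 4 of its other probe sets had the same sign and 3 of them were called lower in TNF. Tnfaip3, which encodes the deubiquitinase A20, differed by 0.24 ± 0.15 (adjusted p = 0.302), with overlapping groups. The receptors for TNF were not called either, at -0.04 ± 0.06 for Tnfrsf1a and -0.15 ± 0.09 for Tnfrsf1b. Without TNF replicate 2 the number of list members called higher was 7 in place of 3, while 3 were higher and 1 lower without TNF replicate 1 or TNF replicate 3, and 4 higher and 1 lower with the beta-actin covariate.

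Promoter windows from RefSeq (build GRCm38.p6, 250 bases before to 50 after the annotated start) are shown for Cxcl10 and Nfkbie, because these are the genes among the 12 largest with an NF-kB consensus match and the widest spread between TNF arrays. Capitals mark matches on either strand to the NF-kB consensus and, in Cxcl10 only, to the core of the interferon-stimulated response element (GAAA, 2 further bases, GAAA). In Cxcl10 (chr5:92348840-92349139, minus strand) the interferon element begins at -213 and NF-kB matches begin at -159, -104 and -103, the last 2 overlapping. In Nfkbie (chr17:45555450-45555749, plus strand) a single NF-kB match begins at -106.
Cxcl10: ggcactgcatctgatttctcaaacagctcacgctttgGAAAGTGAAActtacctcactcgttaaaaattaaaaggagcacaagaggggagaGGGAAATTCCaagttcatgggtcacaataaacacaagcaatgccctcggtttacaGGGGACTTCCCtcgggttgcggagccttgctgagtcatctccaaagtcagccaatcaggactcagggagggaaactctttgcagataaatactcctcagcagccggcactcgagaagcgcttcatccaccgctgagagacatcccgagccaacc
Nfkbie: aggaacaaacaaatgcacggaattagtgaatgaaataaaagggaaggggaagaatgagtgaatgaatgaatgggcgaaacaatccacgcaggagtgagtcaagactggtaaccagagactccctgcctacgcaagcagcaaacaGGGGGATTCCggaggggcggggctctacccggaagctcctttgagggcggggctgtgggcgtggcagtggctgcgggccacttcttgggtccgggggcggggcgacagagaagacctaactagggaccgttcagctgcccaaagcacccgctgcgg

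Of 39 cytokine, growth factor and receptor genes 9 were called higher and 0 lower, with a median of 0.12. Interleukin 6 (Il6), the cytokine that drives hepatic acute phase synthesis, measured 8.21, 7.10 and 7.18 in TNF and 5.47, 5.42 and 5.58 in Dex, a difference of 2.002 ± 0.23. Both group means of Il6 were under the 95th percentile of the odorant receptor genes. The mean of its CI arrays, at 7.47 and 7.63, lay above both models. The receptors of the Il6 family were higher in TNF too, with 1.98 ± 0.17 for the oncostatin M receptor Osmr, 1.25 ± 0.12 for the leukaemia inhibitory factor receptor Lifr and 0.89 ± 0.13 for the shared subunit Il6st. Without Dex replicate 3 the list had 10 higher and 1 lower. Of 21 adhesion genes 5 were called higher and 0 lower, with a median of 0.26. Vcam1, the ligand on activated cells for leukocyte integrins, measured 12.68, 12.30 and 12.35 in TNF and 9.59, 9.30 and 9.48 in Dex, and the hyaluronan receptor Cd44 was higher by 1.97 ± 0.09. The integrin subunit Itgav was higher by 1.23 ± 0.10 on its brightest probe set, but only 2 of its 4 other probe sets had the same sign.

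The interferon response list had a median of 1.19, with 29 of 40 measured members called higher in TNF and 0 lower. That was the largest median of the 37 lists with the brightest probe set of each gene, whereas the chemokine median was larger with the median of a gene's probe sets (1.42 against 0.95) or the probe set of highest variance (1.51 against 1.22). Gbp6, a guanylate-binding GTPase, measured 12.05, 11.51 and 11.77 in TNF and 9.03, 9.03 and 8.84 in Dex. Ifit3, an antiviral protein that binds foreign RNA, measured 12.61, 11.24 and 11.64 in TNF and 9.39, 9.44 and 8.69 in Dex. Replicate 1 was the highest TNF array for both, and the groups stayed apart. The nucleic acid sensor Zbp1 (2.55 ± 0.10), the oligoadenylate synthetases Oasl2 (2.55 ± 0.24) and Oas1a (2.36 ± 0.07), the antiviral GTPase Mx1 (2.13 ± 0.17) and the transcription factor Irf7 (1.60 ± 0.13) were also called. In the CI arrays, however, these genes were as high as in TNF or higher: Gbp6 measured 11.90 and 11.89, and Ifit3 13.06 and 13.13. The mean of the CI arrays lay above both other groups for 23 of the 29 called members and for 29 of all 40. Averaged over the list, the level was 9.73 to 10.37 in the TNF arrays, 8.62 to 8.92 in the Dex arrays and 10.65 and 10.69 in the CI arrays, so the Dex arrays were the lowest of the 8. Without TNF replicate 1 there were 26 called higher.

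Antigen presentation genes, many of them inducible by interferon, differed in the same direction, with 11 of 20 higher, 0 lower and a median of 0.61. The invariant chain Cd74 of class II molecules measured 9.93, 10.13 and 10.09 in TNF against 7.99, 7.88 and 7.77 in Dex. The immunoproteasome subunits Psmb9 (1.85 ± 0.08) and Psmb8 (1.82 ± 0.08) and the peptide transporter Tap1 (1.13 ± 0.13) were higher in every TNF array than in any Dex array. For Tap1 this rested on 1 probe set, since none of its 3 other probe sets was called and the median of its probe sets gave 0.12 (adjusted p = 0.284). Here too the CI arrays were near TNF for Psmb9, at 10.05 and 10.28 against 10.22, 10.38 and 10.33, but for Cd74 they measured 8.17 and 8.35.

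On the Dex side, 22 of 42 genes listed as direct glucocorticoid targets were called lower in TNF, 3 were called higher and the median was -0.62. The classic target Fkbp5, a chaperone that dampens the glucocorticoid receptor, measured 10.49, 10.44 and 10.38 in TNF and 13.13, 13.14 and 12.99 in Dex, a difference of -2.65 ± 0.07 (limma adjusted p = 7.57e-10). Of its 2 other probe sets 1 had the same sign. Fam107a, an actin-binding stress protein, measured 6.57, 7.22 and 6.80 against 12.45, 12.27 and 12.16, and the membrane carboxypeptidase Cpm 5.19, 5.46 and 5.21 against 10.59, 10.51 and 10.56. The TNF arrays of both lay in the range of the odorant receptor genes, and the differences were -5.43 ± 0.15 and -5.27 ± 0.08. Pdk4, the kinase that shuts off pyruvate dehydrogenase, differed by -2.89 ± 0.13, Tsc22d3, the anti-inflammatory leucine zipper protein GILZ, by -2.27 ± 0.13, and Errfi1, an inhibitor of the EGF receptor, by -2.12 ± 0.20. The regulators Zbtb16 (-1.76 ± 0.12), Cebpd (-1.76 ± 0.15), Klf9 (-1.08 ± 0.14) and Per1 (-1.14 ± 0.16), the kinase Sgk1 (-1.53 ± 0.15), the MAP kinase phosphatase Dusp1 (-1.53 ± 0.18) and the metallothioneins Mt1 (-0.92 ± 0.08) and Mt2 (-1.26 ± 0.10) were lower in TNF as well. The members called in the other direction were Lcn2, which is also an NF-kB target, the calcification inhibitor Mgp (1.58 ± 0.07) and the small GTPase Rasd1 (0.65 ± 0.06). Rasd1 stood at 10.52 and 10.55 in CI, above the 9.33, 9.39 and 9.34 of TNF and the 8.67, 8.74 and 8.73 of Dex.

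In CI the large Dex-side genes were close to the TNF level. Fkbp5 measured 10.10 and 10.15 there, Cpm 5.15 and 5.06 and Pdk4 8.44 and 8.62. Of the 22 members called lower in TNF, the CI mean was below both groups for 9, between them and nearer TNF for 10, nearer Dex for 3 and above both for 0. The receptor itself, Nr3c1, measured 11.24, 10.97 and 11.10 in TNF against 10.73, 10.61 and 10.49 in Dex. The groups did not overlap, but the difference of 0.49 ± 0.09 (limma adjusted p = 0.00191) was under the size threshold on the brightest probe set. Of its 5 other probe sets 4 had the same sign and 2 were called higher in TNF. Of 18 genes for the receptor, its chaperones and its ligand-handling enzymes 0 were called by limma, with a median of 0.04, although 5 had an unadjusted p under 0.05. The count was 2 higher without TNF replicate 2 and 1 without TNF replicate 1, Dex replicate 1 or Dex replicate 3, or with the beta-actin covariate.

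The promoter window of Fam107a is shown because, of the 10 genes with a window among the 12 largest on the Dex side, it alone holds the glucocorticoid receptor hexamer AGAACA, on either strand. Of 3 annotated windows, that at chr14:8309730-8310029 (GRCm38.p6, minus strand) holds it at -158 and, as its reverse complement, at -110, and an NF-kB consensus match at -247. A window that starts 2 bases away holds the same sites, and the other holds none.
Fam107a: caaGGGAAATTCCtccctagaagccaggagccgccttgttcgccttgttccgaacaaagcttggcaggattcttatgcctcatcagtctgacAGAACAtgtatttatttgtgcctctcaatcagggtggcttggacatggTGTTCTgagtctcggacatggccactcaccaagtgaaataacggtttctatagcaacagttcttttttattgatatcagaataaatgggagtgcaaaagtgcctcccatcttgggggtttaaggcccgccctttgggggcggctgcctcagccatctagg
The windows of Fkbp5, Pdk4, Cpm and Cyp2e1 held no match to any of the motifs searched, which says only that these letters are not in those 300 bases.

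Other genes far higher in Dex had metabolic or secretory roles. Apoc3, an apolipoprotein that inhibits lipoprotein lipase, measured 6.32, 7.01 and 6.02 in TNF against 11.76, 12.12 and 12.09 in Dex, the largest measured difference in this direction at -5.55 ± 0.20 (limma adjusted p = 9.18e-09). Its TNF arrays were under the 95th percentile of the odorant receptor genes, as were those of Fam107a and Cpm, so the order of these 3 genes rests on levels at the lower end of the scale. Cyp2e1, a cytochrome P450 that oxidises ethanol and ketones, measured 8.94, 9.39 and 8.89 against 13.55, 13.43 and 13.51, a difference of -4.42 ± 0.13. The CI arrays were near the TNF arrays for both, at 6.95 and 6.93 for Apoc3 and 9.04 and 9.37 for Cyp2e1. Of 23 prostaglandin genes 5 were called higher and 3 lower, with a median of 0.09. Ptgds, which makes prostaglandin D2, differed by -3.24 ± 0.08 and the prostacyclin synthase Ptgis by -1.499 ± 0.08, while the prostaglandin receptors Ptgir (1.06 ± 0.16), Ptgfr (0.89 ± 0.09) and Ptger4 (0.88 ± 0.09) and the arachidonate-releasing phospholipase Pla2g4a (0.90 ± 0.08) were higher in TNF. The call for Ptgfr was lost with the median of its probe sets (0.34). For Ptgir and Ptger4 both group means were under the 95th percentile of the odorant receptor genes. The retinoid enzymes Aldh1a1, which makes retinoic acid, and Adh1 differed by -2.83 ± 0.10 and -2.11 ± 0.09. The glutathione transferase Gsta3 measured 5.36, 5.82 and 5.93 in TNF and 9.41, 9.38 and 9.79 in Dex. Ear3, an eosinophil-associated ribonuclease from a family of near-identical genes that a probe set may not separate, measured 3.32, 3.57 and 3.73 in TNF and 8.52, 8.16 and 9.07 in Dex, and its TNF level was below the odorant receptor median. Map7d2, a microtubule-associated protein, differed by -3.30 ± 0.15.

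**Figure D3:**
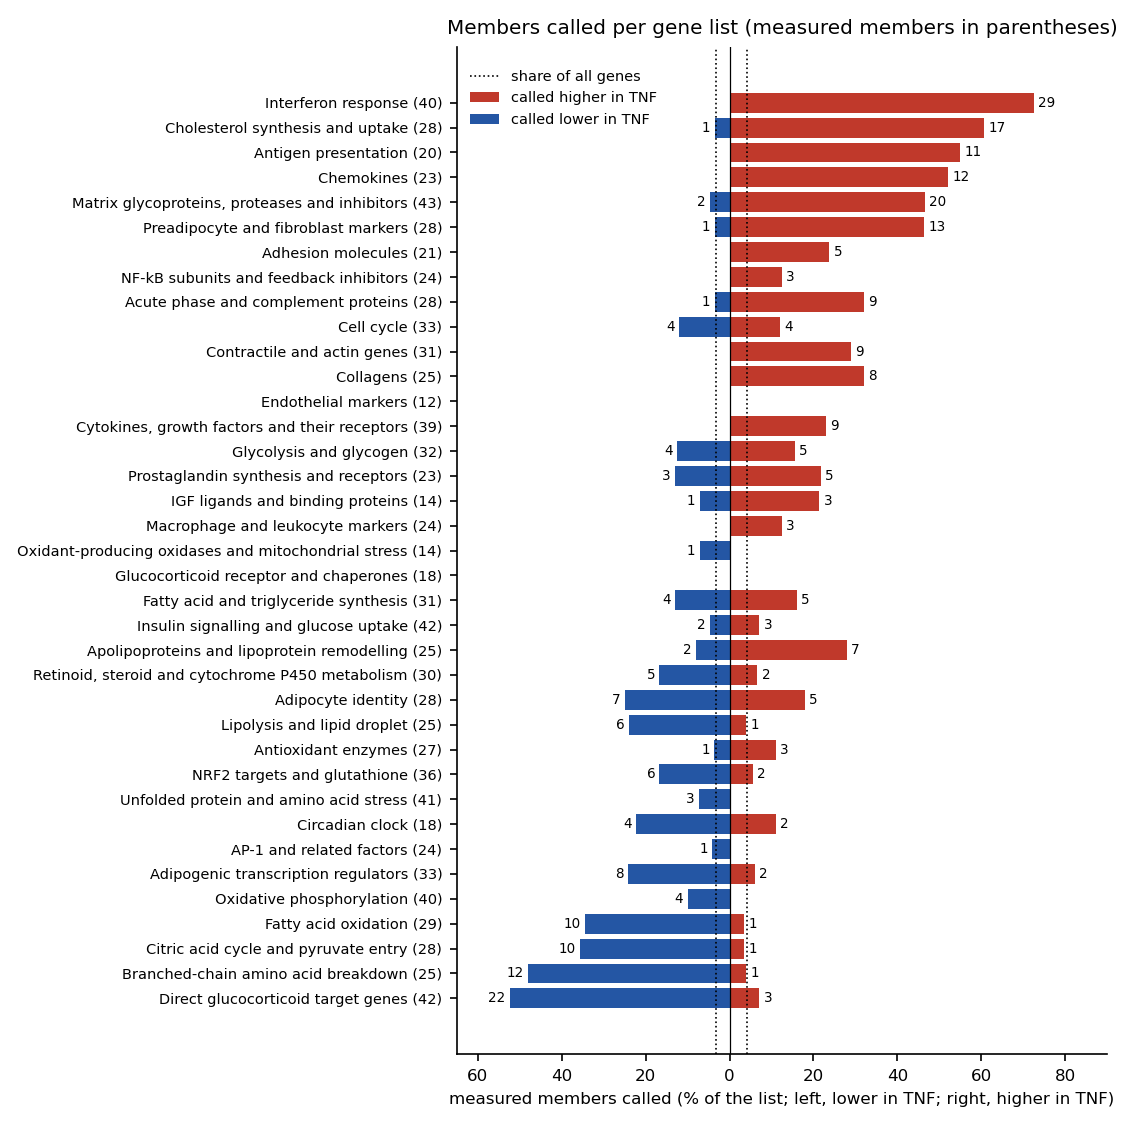
Percent of the measured members of each of 37 gene lists called higher in TNF (red, to the right) and lower in TNF (blue, to the left), with the count beside each bar and the number measured in parentheses; dotted lines mark the 4.14% and 3.16% of all genes called. Lists are ordered by median difference, from 1.19 for the interferon response to -0.62 for the direct glucocorticoid targets.

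Adipocyte identity genes differed in both directions, with little shift in the median of the list. Of 28 measured 5 were called higher and 7 lower in TNF, with a median of -0.04, and without TNF replicate 1 the count was 4 higher and 5 lower. The labels' tissue field names preadipocytes, whereas the protocol describes differentiated cells. Adiponectin (Adipoq), the defining secreted product of mature adipocytes, measured 14.31, 14.32 and 14.31 in TNF and 14.39, 14.36 and 14.37 in Dex, close to the top of the scale. Of the 28 genes 23 had a mean level at or above the 95th percentile of the odorant receptor genes. Pparg, the master regulator of the adipocyte, differed by 0.09 ± 0.08 (adjusted p = 0.461), and the glucose transporter Slc2a4 (GLUT4) by 0.02 ± 0.07 (adjusted p = 0.887), both with overlapping arrays. Cebpa, its partner factor, differed by -0.40 ± 0.09 (adjusted p = 0.00707), under the size threshold. Agt, the precursor of angiotensin, measured 11.35, 11.63 and 11.45 in TNF and 13.84, 13.90 and 13.90 in Dex, a difference of -2.40 ± 0.08. The hormone resistin (Retn, -1.08 ± 0.08), the lipid droplet protein Cidec (-0.91 ± 0.07) and the triglyceride lipase Pnpla2 (-0.87 ± 0.07) were lower in TNF. Car3, the abundant adipocyte carbonic anhydrase, went the other way, with 11.61, 11.31 and 11.35 in TNF, 9.48, 8.74 and 9.20 in Dex and 13.05 and 12.79 in CI. Pck1, the enzyme that supplies glycerol for triglyceride, was higher in TNF by 0.97 ± 0.15, and its CI arrays were higher still at 10.48 and 10.62.

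Of 33 regulators of adipogenesis 8 were called lower and 2 higher, with a median of -0.21. The lower members included Cebpd, Klf9, the forkhead factor Foxc2 (-0.88 ± 0.18), the helix-loop-helix inhibitor Id3 (-0.86 ± 0.21) and the retinoid X receptor Rxra (-0.75 ± 0.07), and those higher were Zfp467 (1.25 ± 0.11) and Klf4 (0.94 ± 0.22). With the beta-actin difference as a covariate the count was 5 higher and 3 lower, without TNF replicate 2 it was 4 higher and 6 lower, and without Dex replicate 1 or TNF replicate 3 it was 3 higher and 5 lower. With the covariate the calls for Foxc2 (-0.54, adjusted p = 0.148) and Id3 (-0.63, adjusted p = 0.194) were lost, and that for Id3 also without Dex replicate 1 or TNF replicate 3.

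Of 42 insulin signalling and glucose uptake genes 3 were called higher (7.14%) and 2 lower (4.76%), beside 4.14% and 3.16% of all genes, with a median of 0.01. With the median of a gene's probe sets or the probe set of highest variance 4 were lower. Irs1, the main receptor substrate in adipocytes, measured 11.32, 11.28 and 11.63 in TNF and 10.56, 10.50 and 10.56 in Dex, a difference of 0.87 ± 0.09. Irs2, the second substrate, went the opposite way, with 8.60, 8.54 and 8.47 against 9.47, 9.48 and 9.56, a difference of -0.97 ± 0.07. In both genes all 3 arrays of a group lay on the same side of the other group. Grb14, an adaptor that inhibits the insulin receptor, was higher in TNF by 2.01 ± 0.19, though its 1 other probe set had the opposite sign. Tbc1d4 (AS160), the Akt substrate that gates GLUT4 movement, was lower, with a difference of -1.06 ± 0.09, at 8.46, 8.28 and 8.33 against 9.51, 9.54 and 9.22. The basal glucose transporter Slc2a1 (GLUT1) was called higher by 0.86 ± 0.20 although Dex replicate 3, at 10.09, lay above TNF replicate 1, at 10.04, and the call was lost without Dex replicate 2 or TNF replicate 3 and with the beta-actin covariate (0.45, adjusted p = 0.256). The receptor Insr differed by -0.36 ± 0.08 (adjusted p = 0.0102), under the size threshold. In the IGF list Igf1 (0.82 ± 0.07) and its carrier subunit Igfals (0.91 ± 0.07) were higher and Igf2 (-0.62 ± 0.07) was lower, with 3 of 14 called higher, 1 lower and a median of 0.07. Igf2 was not called with the median of its probe sets (-0.38).

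Cholesterol synthesis and uptake genes were higher in TNF for the most part. Of 28 measured 17 were called higher in TNF and 1 lower, with a median of 0.70, and each removal of 1 array gave the same counts. The sterol carrier Stard4 measured 10.21, 10.46 and 10.53 in TNF and 8.85, 8.77 and 9.10 in Dex, and squalene epoxidase (Sqle) 11.77, 12.17 and 12.10 against 10.69, 10.80 and 11.10. Hmgcs1, which makes the precursor of mevalonate, was higher by 1.12 ± 0.16 and the sterol desaturase Sc5d by 1.26 ± 0.09, which with the median of its probe sets was 0.47 and not called. Insig2, which holds the sterol sensor in the endoplasmic reticulum and so restrains the pathway, was the member called lower (-1.07 ± 0.09), with 9.80, 9.72 and 9.66 in TNF against 10.63, 10.78 and 10.996. The CI mean lay above both models for 15 of the 17, so that, as with the interferon genes, Dex was the lowest group. Fatty acid and triglyceride synthesis was divided, with 5 of 31 higher, 4 lower and a median of 0.02. The citrate lyase Acly (1.04 ± 0.12), the desaturase Fads2 (0.87 ± 0.07) and the elongase Elovl6 (0.77 ± 0.08) were higher, and the phosphatidate phosphatase Lpin1 (-0.65 ± 0.10) and the glycerol phosphate acyltransferase Gpat4 (-0.62 ± 0.09) lower. With the median of the probe sets the calls for Acly (0.41) and Gpat4 (-0.38) were lost, and Gpat4 was also not called with the beta-actin covariate (-0.45).

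**Figure D4:**
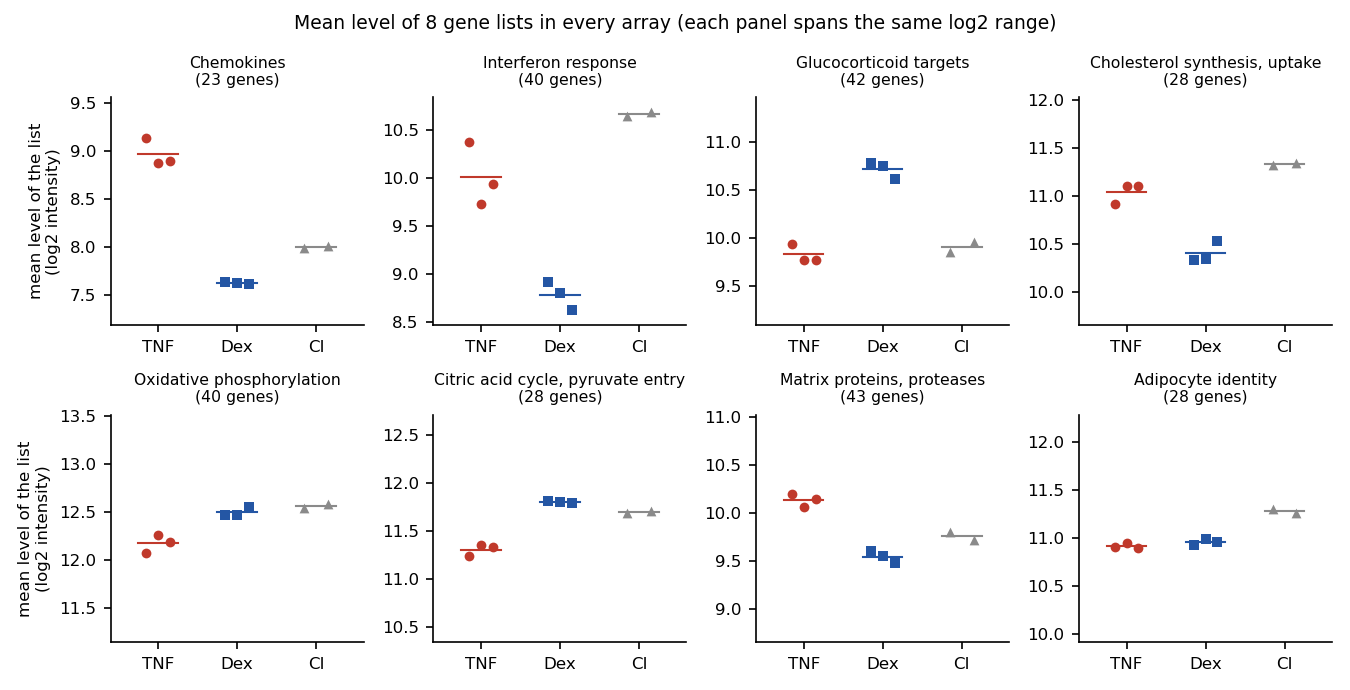
Mean level (y axis, log2 intensity) of 8 gene lists in each TNF, Dex and CI array, 1 point per array with a line at the group mean; every panel spans the same log2 range. Dex is lowest for the interferon and cholesterol lists and highest for the glucocorticoid targets, TNF is lowest for oxidative phosphorylation and the citric acid cycle, and the adipocyte identity list shows TNF and Dex level with each other.

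Oxidative metabolism lay lower in TNF. Of 28 citric acid cycle and pyruvate entry genes 10 were called lower and 1 higher, with a median of -0.41. The NADP-linked isocitrate dehydrogenase Idh2 measured 10.55, 10.69 and 10.61 in TNF and 11.75, 11.75 and 11.50 in Dex. Its 1 other probe set was not called, and with only probe sets of the plain design type the difference was -0.02 (adjusted p = 0.858) in place of -1.05. The pyruvate dehydrogenase subunits Dlat (-0.74 ± 0.07) and Pdhx (-0.86 ± 0.10) were also lower. The opposing regulators of that enzyme, the kinases Pdk4 and Pdk2 (-1.25 ± 0.11) and the phosphatase Pdp1 (-1.12 ± 0.24), were all lower in TNF, whereas the kinase Pdk1 was higher by 0.66 ± 0.18. With the beta-actin covariate Pdp1 was at -0.73 (adjusted p = 0.165) and not called. The call for Pdk1 was lost without any one of 4 arrays, for example with an adjusted p of 0.0847 without TNF replicate 3, and with the beta-actin covariate (adjusted p = 0.187). Fatty acid oxidation had 10 of 29 lower and 1 higher, with a median of -0.36, and 9 lower and 0 higher without TNF replicate 1. The medium-chain dehydrogenase Acadm measured 12.27, 12.30 and 12.28 in TNF and 13.17, 13.17 and 13.03 in Dex, and the very-long-chain dehydrogenase Acadvl differed by -0.74 ± 0.07.

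Of 25 genes of branched-chain amino acid breakdown 12 were called lower and 1 higher, with a median of -0.48. The mitochondrial transaminase Bcat2 measured 9.62, 9.58 and 9.57 in TNF and 11.18, 11.21 and 11.04 in Dex, a difference of -1.55 ± 0.09. Its cytosolic counterpart Bcat1 went the other way, at 1.07 ± 0.13, with 8.19, 8.52 and 8.53 against 7.26, 7.13 and 7.64. Neither of its 2 other probe sets was called, and the call was lost with the median of the probe sets (0.19, adjusted p = 0.145) or with the plain design type alone (0.12, adjusted p = 0.293). The valine pathway enzymes Hibch (-1.003 ± 0.07) and Aldh6a1 (-0.90 ± 0.06) were lower. Without TNF replicate 1 the count lower was 8. Oxidative phosphorylation genes differed by less than the size threshold in most cases. Only 4 of 40 were called lower and 0 higher, while the median was -0.35 and 36 of the 40 had TNF and Dex arrays that did not overlap, beside 35.9% of all genes. Ndufs1 of complex I measured 10.57, 10.79 and 10.75 in TNF against 11.42, 11.37 and 11.42, a difference of -0.70 ± 0.07. The count was 9 without TNF replicate 2 and 3 without Dex replicate 3, 7 with the beta-actin covariate and 8 with each array centred on its median.

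In the CI arrays the mean level of the oxidative phosphorylation list was 12.54 and 12.58, beside 12.07 to 12.26 in TNF and 12.47 to 12.54 in Dex. For the citric acid cycle list it was 11.69 and 11.71, beside 11.24 to 11.35 and 11.79 to 11.82, so TNF was the lowest group for both lists. Glycolysis and glycogen genes were divided, with 5 of 32 higher, 4 lower and a median of 0.09. Without TNF replicate 1 there were 6 higher and 2 lower, and with the beta-actin covariate 3 in each direction. The glycogen-targeting subunit Ppp1r3b (1.45 ± 0.17), the neuronal-type enolase Eno2 (1.29 ± 0.21) and hexokinase 1 (Hk1, 0.81 ± 0.13) were higher in TNF, and the liver-type glycogen phosphorylase Pygl (-1.82 ± 0.21) and the bifunctional regulator Pfkfb3 (-0.85 ± 0.12) lower. For Eno2 and Pygl both group means were under the 95th percentile of the odorant receptor genes. Of 25 lipolysis and lipid droplet genes 6 were called lower and 1 higher, with a median of -0.06. Abhd5, the activator of the lipase Pnpla2, was lower (-0.73 ± 0.07), and G0s2, the inhibitor of that lipase, was higher (0.52 ± 0.11). The call for G0s2 was lost without TNF replicate 2, Dex replicate 1 or Dex replicate 2, with values of 0.46, 0.43 and 0.49, with the beta-actin covariate (0.41) and after median centring of the arrays (0.49).

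Of 27 antioxidant enzymes 3 were called higher (11.1%) and 1 lower (3.7%), beside 4.14% and 3.16% of all genes. The median was -0.08, in cells that had all received an antioxidant. The count lower was 2 without any 1 of the 6 TNF and Dex arrays or with the beta-actin covariate, and 5 with the probe set of highest variance. The extracellular superoxide dismutase Sod3 measured 11.83, 11.77 and 11.74 in TNF and 10.55, 10.63 and 10.35 in Dex, a difference of 1.27 ± 0.08. Mitochondrial superoxide dismutase (Sod2), a known NF-kB target, measured 12.95, 12.95 and 12.93 in TNF and 12.46, 12.46 and 12.52 in Dex, and its difference of 0.46 ± 0.06 (limma adjusted p = 0.000227) was just under the size threshold on its brightest probe set. All 3 of its other probe sets had the same sign and 2 of them were called higher in TNF. The endoplasmic reticulum enzymes Gpx8 (0.89 ± 0.10) and Prdx4 (0.58 ± 0.07) were higher, and mitochondrial Prdx3 (-0.59 ± 0.08) was lower. Among 36 NRF2 targets and glutathione genes 6 were called lower and 2 higher, with a median of -0.08. The lower genes included the transferases Gsta3 (-3.82 ± 0.15) and Mgst3 (-1.27 ± 0.13) and Gclc (-0.83 ± 0.15), the catalytic subunit of glutathione synthesis, and the higher were Gstt1 (1.25 ± 0.09) and the quinone reductase Nqo1 (0.61 ± 0.11). Haem oxygenase (Hmox1) measured 11.22, 12.07 and 11.85 in TNF and 11.81, 12.28 and 12.87 in Dex, and with overlapping groups its difference of -0.60 ± 0.25 was not called (adjusted p = 0.112). With the beta-actin covariate 9 of the NRF2 list were lower and 1 higher, and Nqo1 was not called (0.40, adjusted p = 0.0697).

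Matrix genes were higher in TNF in most cases in which they were called. Of 43 matrix glycoproteins, proteases and inhibitors 20 were called higher and 2 lower, with a median of 0.49 (18 higher and 4 lower without Dex replicate 3), and of 25 collagens 8 were higher and 0 lower, with a median of 0.13. The stromelysin Mmp3 measured 8.28, 8.14 and 8.14 in TNF and 5.54, 5.60 and 5.47 in Dex, a difference of 2.65 ± 0.07 (limma adjusted p = 7.57e-10). Its inhibitor Timp1 was higher as well, by 2.06 ± 0.08, and the small proteoglycans lumican (Lum, 2.07 ± 0.10) and decorin (Dcn, 1.75 ± 0.11) and fibronectin (Fn1, 1.64 ± 0.09) followed. The related inhibitor Timp4 (-1.36 ± 0.11) and the matricellular protein Ccn1 (-1.47 ± 0.21) were lower, although with only probe sets of the plain design type Ccn1 was at -0.235 and not called. Among the collagens Col5a2 (1.52 ± 0.08), Col3a1 (1.24 ± 0.09) and Col1a1 (0.99 ± 0.10), all fibrillar, led, and for Col3a1 the CI arrays, at 13.84 and 13.69, were level with TNF at 13.75, 13.69 and 13.70.

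Markers of preadipocytes and fibroblasts, cells that can remain undifferentiated in such cultures, differed in the same direction as the matrix genes. Of 28 measured 13 were called higher in TNF and 1 lower, with a median of 0.30. Leaving out any 1 array gave 11 to 12 higher, with 2 lower without TNF replicate 3 or Dex replicate 3. The mean level of the list was 9.84 to 9.93 in TNF and 9.35 to 9.38 in Dex. The Wnt antagonist Sfrp2 measured 10.92, 10.71 and 10.90 in TNF and 8.48, 8.59 and 8.67 in Dex, and the receptor Pdgfrb, a marker of progenitors, was higher by 1.34 ± 0.13. Dlk1 (Pref-1), which defines preadipocytes, measured 13.10, 12.96 and 13.03 in TNF and 12.24, 12.37 and 11.996 in Dex, with its 1 other probe set of the opposite sign. Col1a1 and Cd44, given above, are on this list too. The member lower in TNF was Gas6, a ligand of TAM receptors, at -1.26 ± 0.09, with its 1 other probe set of the opposite sign. Of 31 contractile and actin genes 9 were higher and 0 lower, with a median of 0.15, led by smooth muscle actin (Acta2, 1.39 ± 0.13) and Tagln2 (1.18 ± 0.08). Acta2 was called on its brightest probe set only, and the median of its probe sets gave 0.26 (adjusted p = 0.114). The part of differing numbers of undifferentiated cells in the matrix, collagen and contractile results was not tested.

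Markers of cells that should be absent from the culture were near the lower end of the array in most cases. Of 24 macrophage and leukocyte markers 16 had a mean level under the 95th percentile of the odorant receptor genes, and so did 8 of 12 endothelial markers, of which 0 were called by limma and 4 had an unadjusted p under 0.05. Of the leukocyte list 3 were called higher (12.5%, beside 4.14% of all genes) and 0 lower, with a median of 0.05. Its mean level was 7.07 to 7.15 in TNF and 6.91 to 6.93 in Dex. Called higher in TNF were the lysozymes Lyz1 (1.18 ± 0.08) and Lyz2 (0.95 ± 0.06), which share sequence and may share probes (Lyz1 was at 0.20 and not called with the plain design type alone), and the calcium-binding S100a8 (1.58 ± 0.25), with 8.46, 9.18 and 8.95 against 7.29, 6.68 and 7.86. Both lysozymes were well above the lower end, with TNF and Dex means of 11.17 and 9.99 for Lyz1 and 11.04 and 10.09 for Lyz2. The part of such cells in the chemokine and antigen presentation results was not tested.

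Counts for clock and immediate early genes depended on TNF replicate 1. Of 18 circadian genes 4 were called lower and 2 higher, with a median of -0.13. The clock repressors Nfil3 (-1.002 ± 0.11) and Per1 and the nuclear receptor Rora (-1.005 ± 0.08) were lower and the output factor Dbp (0.74 ± 0.15) higher, and without TNF replicate 1 the count was 6 lower and 1 higher, against 5 lower and 1 higher without Dex replicate 1 or with the beta-actin covariate. Dbp was not called with only probe sets of the plain design type (0.45, adjusted p = 0.0688). Among 33 cell cycle genes 4 were called in each direction and the median was 0.16, with the growth arrest gene Gadd45a higher (0.89 ± 0.18) and its relative Gadd45g (-1.38 ± 0.09) and the CDK inhibitor Cdkn1a (-0.85 ± 0.08) lower. Without TNF replicate 1 there were 2 higher and 5 lower, and with the beta-actin covariate 2 in each direction. Of 24 AP-1 and other transcription factors named by the study 1 was called, Ier2, which was lower (-1.04 ± 0.15). That is 4.17% of the list, beside 3.16% of all genes called lower. The paper drew Jun, GATA3 and ETS2 from its time course of oxidative stress, which used other samples. The list itself was chosen here with earlier results of these data known, so it is no independent evidence. Jun differed by -0.56 ± 0.20 (adjusted p = 0.0665), Ets2 by 0.40 ± 0.17 (adjusted p = 0.133) and Gata3 by 0.44 ± 0.11 (adjusted p = 0.0159, under the size threshold). For Jun the arrays were 10.45, 9.67 and 9.78 in TNF and 10.47, 10.70 and 10.40 in Dex, so that TNF replicate 1 alone lay within the Dex range. Without that array 8 of the 24 were called lower, without TNF replicate 2 there were 3 higher and 1 lower, and without TNF replicate 3 or with the beta-actin covariate 1 was called in each direction. Of the 2 other probe sets of Ets2, 1 was called higher. The unfolded protein and amino acid stress list had a median of -0.10, 3 of 41 lower (7.32%, beside 3.16% of all genes) and 0 higher, with the folate enzyme Mthfd2 at -0.98 ± 0.08. There were 9 lower without TNF replicate 1, against 1 without TNF replicate 2, TNF replicate 3 or Dex replicate 2 and with the beta-actin covariate.

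Of 25 apolipoprotein and lipoprotein remodelling genes 7 were called higher and 2 lower, among the latter Apoc3, with a median of -0.03. Clusterin (Clu), an extracellular chaperone also called apolipoprotein J, measured 11.91, 11.63 and 11.77 in TNF and 9.57, 9.67 and 9.73 in Dex, and the phospholipid transfer protein Pltp (1.29 ± 0.09), Apoe (1.10 ± 0.08) and Angptl8 (1.08 ± 0.15), a regulator of lipoprotein lipase, were higher. Retinoid and P450 genes had a median of -0.03, with 5 of 30 lower, led by Cyp2e1, Aldh1a1 and Adh1, and 2 higher, the oxysterol hydroxylase Cyp7b1 (1.12 ± 0.14) and Rarres2, the precursor of the adipokine chemerin (0.79 ± 0.07), which was at 0.23 and not called with only probe sets of the plain design type. Of 14 oxidant-producing oxidases and related genes 1 was called (7.14%, beside 3.16% of all genes lower), aldehyde oxidase Aox1, at -0.89 ± 0.10, and the median was 0.04. Without TNF replicate 3 or Dex replicate 3 there was also 1 higher.

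The CI arrays lay at either end or between the models, depending on the gene. Of the 753 genes higher in TNF the CI mean lay above both models for 235, below both for 107, between them and nearer TNF for 196 and nearer Dex for 215. Of the 114 genes lower in TNF by over 1, the CI mean lay above both for 1, below both for 41, nearer TNF for 56 and nearer Dex for 16. CI shares no array with either group, but it has only 2 arrays and no call was made on its position.

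Motif matches were counted in RefSeq promoter windows of 300 bases for 14369 measured genes. A match to the NF-kB consensus, on either strand, was present in 11.7% of all genes, in 14.2% of 577 called higher and 12.4% of 469 called lower. It was present in 9 of 30 genes higher by over 2 and in 3 of 19 lower by over 2. The interferon element core was present in 3.64% of all genes, 9.01% of those called higher, 4.26% of those called lower and 17 of 31 members of the interferon list. The hexamer AGAACA was present in 16.9% of all genes, 14.2% of those higher and 14.7% of those lower. The full palindrome (AGAACA and its reverse complement, 3 bases apart, with at most 1 of the 12 fixed bases mismatched) was in 16 of all genes (0.111%), 0 of those higher and 1 of those lower (0.213%). Over all genes the hexamer (16.9%) and the NF-kB consensus (11.7%) were both common, so a match to either says little about a single gene. A match is a description, not a site of binding.

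At the threshold itself the genes just inside were Ypel2 (0.50 ± 0.11), Zc3hav1l (0.50 ± 0.09) and Socs7 (-0.50 ± 0.10), and those just outside were Actr6 (-0.50 ± 0.10), Tle2 (0.50 ± 0.09) and Zdhhc9 (0.50 ± 0.07), which differ from each other only beyond the second decimal.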

How the data were processed

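RNA of 3T3-L1 adipocytes (3 TNF, 3 Dex and 2 CI samples, all with MnTBAP) was measured on Affymetrix whole-genome mouse arrays. The authors deposited 1 linear intensity per probe set and array. Robust multiarray averaging (RMA) is named in the methods for these arrays, and whether the deposited intensities are RMA values with the log removed is not stated. The log2 of each deposited intensity was taken here with no pseudocount. Per gene, the probe set with 1 gene symbol and the highest mean over the 8 arrays was kept, named through the platform annotation and current symbols, which gave 18194 genes. A 3-group model was fitted to all 8 arrays with limma (3.58.1, in R 4.3.3), without covariates, and TNF minus Dex was tested two-sided with Benjamini-Hochberg adjustment over all genes, which used 5 residual degrees of freedom. The moderation added 6.15 prior degrees of freedom, estimated over all genes. Calls required both an adjusted p below 0.05 and a log2 difference above 0.5 in size. Genes were named by rule: in each direction the 12 largest differences without overlap between groups and, from every list, at most 4 called genes, together with set genes of the TNF, glucocorticoid, insulin and oxidant pathways. Other genes were chosen after their values were seen. The members and the 37 lists (984 measured genes) were chosen with earlier results of these data known, so no list was tested. Each list count is to be read beside the 4.14% of all genes called higher and the 3.16% called lower. The test was checked on simulated data. Promoter windows came from RefSeq (GRCm38.p6). Alternatives covered the choice of probe set, low-level filter, offset, scaling, variance model, array weights, covariates, thresholds and each array left out. Python 3.11.15 was used for the summaries.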

Additional observations from a re-analysis of the deposited data

How the results depend on the processing

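The count of 1328 called genes (753 higher, 575 lower) was 2583 (1318 and 1265) with every probe set as a feature, 438 (276 and 162) with limma's treat against a difference of 0.5, 342 (228 and 114) with a difference over 1 required, and 3801 (1839 and 1962) with no minimum difference. Under the other planned settings it lay between 1059, with genes under the median level left out, and 1656, with the probe set of highest variance. Leaving out 1 array at a time gave 1284 to 1420 called, 698 to 829 higher and 567 to 615 lower. The share of called genes that were higher was 56.7%, against 61.3% after quantile normalization and 51.8% with each array centred on its median. With 3 arrays a group, it could not be decided whether equal replicate numbers pair the samples. Deviations from the group mean correlated at 0.334, -0.095 and 0.213 between same-numbered TNF and Dex arrays. Between differently numbered arrays they correlated at -0.384 to 0.284. A fit with the replicate number as a block called 1339 genes (757 and 582). Of 193 named genes 175 were called, and 44 of these lost the call under at least 1 of the 22 settings run on single genes, 19 of them with the beta-actin covariate and 20 with the median of a gene's probe sets. Direction was reversed for Itgav alone, which is among the 20, at -0.13 with the median of its probe sets against 1.23. With only 3 arrays a group and a median SE of 0.079, small differences in genes near the lower end of the scale are the least certain.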

Other observations

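Some of the largest differences were in genes on none of the lists, chosen here after their values were seen. Higher in TNF were the angiotensin receptor Agtr2 (2.68 ± 0.14), the hyaluronan-binding Tnfaip6, whose name records its induction by TNF (2.45), the lipopolysaccharide-binding acute phase protein Lbp (2.33 ± 0.07), the chitinase-like Chil1 (2.29), the guidance molecules Slit2 (2.31) and Sema3c (2.10), the growth factor Fgf7 (2.03), the cation channel Trpv1 (2.34) and the helicase Ddx60 (2.31), an antiviral protein. Agtr2 measured 6.72, 6.67 and 7.23 in TNF and 4.40, 4.05 and 4.13 in Dex, below the odorant receptor median in the latter, with CI at 7.08 and 7.17.

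Lower in TNF were Mertk, a receptor for the Gas6 ligand that was itself lower, at -2.63, the ubiquitin ligase Rnf144b at -2.20, the PACAP receptor Adcyap1r1 at -2.09, the mitochondrial carbonic anhydrase Car5b at -2.07, the p53 target Trp53inp1 at -2.001, the kinase Wnk4 at -1.69, proline dehydrogenase (Prodh) at -1.68 and the folate hydrolase Folh1 at -1.61. The means of Folh1, 3.61 in TNF and 5.22 in Dex, were both below the odorant receptor median. No list was fixed for these genes, and they are given as values only.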
